A study of Mus musculus with 7 samples.

Results

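The respiratory chain and ATP synthase were examined in whole colon tumors, complex by complex and separately for the genes of the nuclear and the mitochondrial genome. Members were the protein-coding genes whose symbols name a subunit of complexes I to V, by the patterns Nduf followed by a, b, c, s or v and then a digit, the Sdh genes a to d, Uqcr, Cox4 to Cox8, Atp5, and the mt-Nd, mt-Co, mt-Cyt and mt-Atp genes. Of 43346 genes in the count table, 97 were members, 84 nuclear and 13 mitochondrial. The samples were 7 tumors from mice, C57BL6/J per the labels, that were transplanted with BM and then received 10 mg/kg azoxymethane (AOM, a carcinogen) and 3 cycles of 3% dextran sulfate sodium (DSS, an agent that injures the colon epithelium) in the drinking water. In 4 mice the graft was Dnmt3a(+/-) BM, in which Mx1-Cre, induced with poly(I:C), had deleted an allele of the DNA methyltransferase gene Dnmt3a. In 3 mice it was Dnmt3a(+/+) BM, and per the study's methods this control graft also carried Mx1-Cre and was exposed to poly(I:C). The recipients, 8 weeks old per the labels, carried normal Dnmt3a (the study's methods name congenic CD45.1 recipients and give a younger age), so that only cells derived from the graft could carry the deletion, and each library held tumor epithelium, stroma and infiltrating blood cells together. The labels name 2 transplantation experiments: BMT18, with replicates 1 and 2 of each group, and BMT8, with replicate 3 of Dnmt3a(+/+) BM and replicates 3 and 4 of Dnmt3a(+/-) BM.

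Respiratory complexes I to IV pass electrons from NADH and succinate to oxygen and, except complex II, pump protons across the inner mitochondrial membrane. Complex V, the ATP synthase, uses that proton gradient to make ATP. Complex II is encoded wholly in the nucleus, whereas complexes I, III, IV and V also contain subunits made from mitochondrial DNA, so that the transcripts of a single complex come from both genomes. Differentiated colonocytes are rich in mitochondria and burn butyrate from the gut lumen by this route.

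Total counts per tumor lay between 38472738 and 64314999. All values below are CPM (counts scaled to a common library size, with TMM factors that correct for library composition) and fold changes are Dnmt3a(+/-) BM over Dnmt3a(+/+) BM. Dnmt3a itself was measured at 24.3, 23.1 and 20.2 CPM with Dnmt3a(+/+) BM and at 27.8, 43.0, 28.3 and 22.0 CPM with Dnmt3a(+/-) BM, so that the graft deletion was not visible as a lower level in the whole tumor. Of the members, 94 had enough counts to be tested among 15810 genes. Cox7b2 and Cox8c had no count in any tumor, which allows at most 0.078 CPM in the shallowest library by the 3-count floor (counting error only), and Cox6a2 had 36 counts over the 7 tumors. In whole tumors, fewer cells of a type and less RNA per cell cannot be told apart.

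The nuclear subunit genes were lower in tumors with Dnmt3a(+/-) BM, whereas the mitochondrial genes lay on both sides of 0. Of 81 nuclear members tested, 78 (96.3%) had a log2 fold change below 0, beside 49.8% of all genes tested, and their median log2 fold change was -0.38, a level 22.9% lower, beside 0.003 for all genes. Of the 13 mitochondrial members, 6 were below 0 and the median was 0.03. With the experiment as a covariate, the median was -0.23 for the mitochondrial and -0.44 for the nuclear members. The mean log2 CPM of the nuclear members was 6.96, 6.91 and 7.32 in the 3 tumors with Dnmt3a(+/+) BM and 6.57, 6.34, 6.75 and 7.09 in the 4 with Dnmt3a(+/-) BM. That of the mitochondrial members was 9.55, 9.37 and 10.64 against 9.27, 9.15, 9.64 and 10.99. Nuclear levels overlapped between the groups through replicate 4 of Dnmt3a(+/-) BM alone, which lay above replicates 1 and 2 of Dnmt3a(+/+) BM. Mitochondrial levels were highest in Dnmt3a(+/-) BM replicate 4 and Dnmt3a(+/+) BM replicate 3, both from experiment BMT8. Members vary together across tumors, so counts of members are not counts of independent observations, and the study tested an oxidative phosphorylation gene set on these same tumors, so the direction is not independent evidence.

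**Figure D1:**
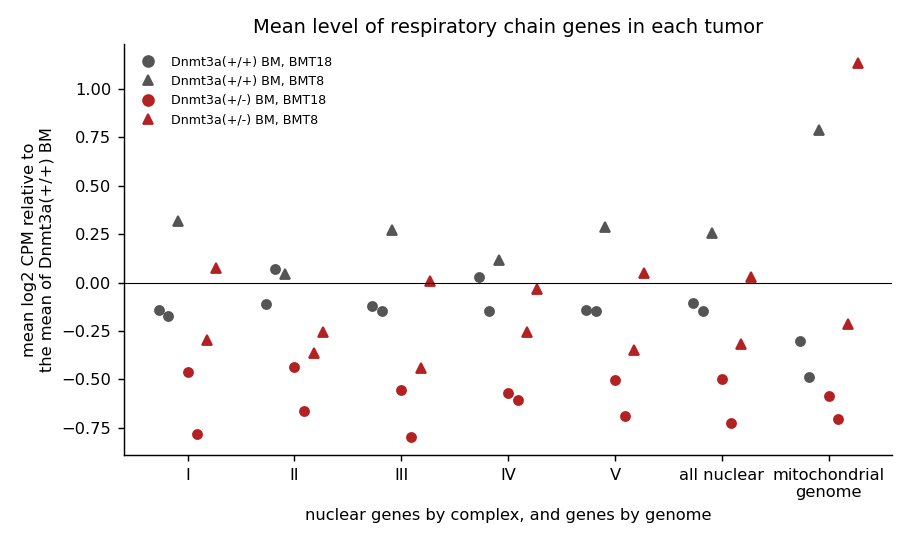
Mean log2 CPM of the nuclear members of each complex, of all nuclear members and of the mitochondrial genome members in each tumor, relative to the mean of the 3 tumors with Dnmt3a(+/+) BM (y axis, log2 units). Grey marks Dnmt3a(+/+) BM, red Dnmt3a(+/-) BM, circles BMT18 and triangles BMT8; the nuclear mean of Dnmt3a(+/-) BM tumors lay between -0.72 and 0.03, while the mitochondrial mean ranged from -0.70 to 1.14.

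No single member passed the test. The quasi-likelihood test of edgeR, with p values adjusted by the Benjamini-Hochberg method over all genes, called 0 members, as it called 0% of all genes, where a call needed a log2 fold change beyond 1 in size and an adjusted p under 0.05. The lowest adjusted p of a member was 0.361 (Ndufb8) by edgeR and 0.0652 (Ndufb8) by DESeq2. At an unadjusted p under 0.05, 13 members were lower, 13.8% beside 5.2% of all genes, and 1 (Cox4i2) was higher, beside 5.83%. Cox4i2 passed the count filter only through tumors with Dnmt3a(+/-) BM, the group where it was higher. DESeq2 also called 0 members, while it called 1.87% of all genes, with 14 members lower and 1 higher at an unadjusted p under 0.05, beside 5.19% and 7.81% of all genes. Every tumor with Dnmt3a(+/-) BM lay below every tumor with Dnmt3a(+/+) BM in 14 nuclear members, beside 6.32% of all genes tested. The number lower at an unadjusted p under 0.05 depended on single tumors: it was 45 without Dnmt3a(+/-) BM replicate 4, beside 5.74% of all genes, and 8 without Dnmt3a(+/+) BM replicate 3 (beside 6.19%), without Dnmt3a(+/-) BM replicate 2 (beside 3.15%) or without Dnmt3a(+/-) BM replicate 3 (beside 4.05%).

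The nuclear members were lower with Dnmt3a(+/-) BM in both transplantation experiments. In BMT18 the mean log2 CPM of the nuclear members differed by -0.48 (Dnmt3a(+/-) BM minus Dnmt3a(+/+) BM, 2 tumors against 2), and in BMT8 by -0.40 (2 against 1). The BMT8 difference rests on a single control, Dnmt3a(+/+) BM replicate 3. That tumor was the highest of all 7 in 65 of 76 widely expressed nuclear members. Every Dnmt3a(+/-) BM tumor lay below every Dnmt3a(+/+) BM tumor of its own experiment, in both experiments, for 71 of the 81 nuclear members, beside 13.8% of all genes tested. For the mitochondrial members the differences were -0.25 in BMT18 and -0.33 in BMT8, and 0 of 13 had that order in both. With the experiment as a covariate, 58 nuclear members were lower at an unadjusted p under 0.05, beside 7.32% of all genes, with a median of -0.44 and a lowest adjusted p of 0.261 (edgeR), so that again none passed. The mitochondrial median under that covariate was -0.23, with 0 of 13 at an unadjusted p under 0.05.

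**Figure D2:**
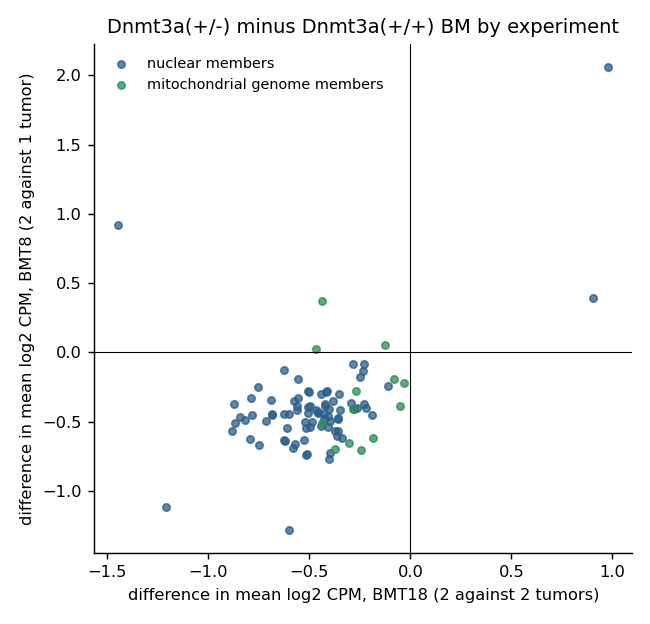
Difference in mean log2 CPM between Dnmt3a(+/-) BM and Dnmt3a(+/+) BM for each tested member in BMT18 (x axis, 2 tumors against 2) and in BMT8 (y axis, 2 against 1), in log2 units. Most nuclear members (blue) lie below 0 on both axes, around the mean differences of -0.48 and -0.40; the mitochondrial members (green) lie to the left of 0 on the x axis and spread above and below 0 on the y axis.

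Complex I, the NADH dehydrogenase through which most electrons enter the chain, had 37 nuclear members. Their median log2 fold change was -0.34, and 36 of them were below 0. At an unadjusted p under 0.05, 3 were lower (8.11%, beside 5.2% of all genes): Ndufb5, Ndufb8 and Ndufb9, all of the membrane arm. Ndufb8 (ENSMUSG00000025204, chr19:44548572-44555440, GRCm38), an accessory subunit needed for a stable complex, was measured at 311, 280.0 and 304 CPM with Dnmt3a(+/+) BM and at 178, 144, 179 and 234 CPM with Dnmt3a(+/-) BM. The groups did not overlap for Ndufb8, and the means were 298 ± 16.5 CPM (SD, n = 3) and 184 ± 37.2 CPM (SD, n = 4). Its log2 fold change -0.70 ± 0.19 (SE) had an adjusted p of 0.361 by edgeR, an exact two-sided permutation p of 0.0571 over the 35 splits of the tumors, the lowest possible being 0.0286, and a fit with the experiment as a term gave -0.75.

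The subunits of the catalytic core of complex I given next were named by function, whereas Ndufb8 was picked as the member of lowest p. Ndufv1, which carries the flavin that accepts electrons from NADH, had 236, 265 and 291 CPM against 206, 152, 199 and 249.8 CPM. Ndufs1, the largest iron-sulfur subunit, had 131, 163 and 122 CPM against 131, 119, 124 and 108 CPM, and its log2 fold change -0.21 ± 0.15 (SE) was the smallest among the core subunits Ndufs1, Ndufs3, Ndufs7, Ndufs8, Ndufv1 and Ndufv2. Those of the others were -0.38 ± 0.23 for Ndufs3, -0.45 ± 0.28 for Ndufs7, -0.30 ± 0.25 for Ndufs8, -0.39 ± 0.19 for Ndufv1 and -0.28 ± 0.22 for Ndufv2. All of these values were below 0, and none had an unadjusted p under 0.05.

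Complex II, succinate dehydrogenase, is shared by the respiratory chain and the tricarboxylic acid (TCA) cycle, and the median log2 fold change of its 4 genes was -0.44. Sdhd (ENSMUSG00000000171, chr9:50596357-50603812), a membrane anchor, was measured at 296, 317 and 338 CPM with Dnmt3a(+/+) BM and at 197, 177, 218 and 264 CPM with Dnmt3a(+/-) BM. Sdhb, the iron-sulfur subunit, was measured at 161, 180.1 and 182 CPM and at 114, 98.5, 120.3 and 147 CPM. In both genes every tumor with Dnmt3a(+/-) BM lay below every tumor with Dnmt3a(+/+) BM. Their log2 fold changes were -0.57 ± 0.17 for Sdhd (adjusted p = 0.383, edgeR) and -0.54 ± 0.17 for Sdhb (adjusted p = 0.384). The other anchor, Sdhc, was at -0.35 ± 0.17. Sdha, the flavoprotein that oxidizes succinate, had 299, 372 and 286 CPM against 294, 255, 296 and 246 CPM, groups that overlapped, and log2 fold change -0.23 ± 0.16 (SE).

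Complex III, which hands electrons from ubiquinol to cytochrome c, had 8 nuclear members, 8 of them below 0, with a median of -0.43 and a range from -0.51 (Uqcrfs1) to -0.34 (Uqcr11). Uqcrc2 (ENSMUSG00000030884, chr7:120635176-120659524), a core protein of the matrix side, was measured at 386, 392 and 348 CPM with Dnmt3a(+/+) BM and at 284, 266, 279.9 and 289.9 CPM with Dnmt3a(+/-) BM. The highest Dnmt3a(+/-) BM tumor lay below the lowest Dnmt3a(+/+) BM tumor, the means were 375 ± 23.8 and 279.9 ± 10.1 CPM (SD, n = 3 and 4), and the log2 fold change -0.42 ± 0.13 (SE) had an adjusted p of 0.389 by edgeR. Uqcrc1, its partner in the core, was at -0.38 ± 0.17, and Uqcrfs1, the Rieske iron-sulfur protein, at -0.51 ± 0.26.

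Complex IV, cytochrome c oxidase, had the lowest nuclear median of the 5 complexes, -0.53, a level 30.6% lower. The medians of the other complexes lay between -0.44 and -0.33, and the order of the complexes was not tested. By the mean, complex IV was instead the nearest to 0, at -0.30, beside -0.32, -0.42, -0.42 and -0.36 for complexes I, II, III and V. That mean includes tissue-restricted forms of low level, Cox4i2 at 2.31, Cox6b2 at 0.97 and Cox8b at -0.997, and Cox7a1 at -0.999. The 11 widely expressed members of complex IV alone had a median of -0.53. Without Dnmt3a(+/+) BM replicate 3 the median of complex II, -0.40, was below the -0.39 of complex IV. Of the 15 tested nuclear members of complex IV, 13 were below 0 and 6 were lower at an unadjusted p under 0.05 (40.0%, beside 5.2% of all genes). All 11 widely expressed members were below 0, from -0.63 (Cox6a1) to -0.37 (Cox6b1). Cox4i1, the regulatory subunit that binds ATP, was measured at 1083, 1040.5 and 1125 CPM with Dnmt3a(+/+) BM and at 666, 527, 735 and 901 CPM with Dnmt3a(+/-) BM. Cox8a (ENSMUSG00000035885, chr19:7215153-7217616), the smallest subunit, was measured at 323, 281 and 388 CPM and at 215, 189, 235 and 245 CPM. Neither gene overlapped between the groups, with log2 fold change -0.62 ± 0.21 (SE) for Cox4i1 (adjusted p = 0.406, edgeR) and -0.58 ± 0.17 for Cox8a (adjusted p = 0.377, edgeR). Cox7a2l, which helps complexes III and IV to join in supercomplexes, was at -0.60 ± 0.18 and did not overlap either. Cox6a1 was at -0.63 ± 0.21, Cox5a and Cox5b, which contact the catalytic core, were at -0.52 ± 0.25 and -0.47 ± 0.25, and Cox6b1, on the side that binds cytochrome c, was at -0.37 ± 0.22.

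All 17 nuclear members of complex V were below 0, with a median of -0.33. At an unadjusted p under 0.05, 1 (Atp5c1) was lower, 5.88% beside 5.2% of all genes. Atp5b, the catalytic β subunit, was the nuclear member with the highest CPM, at 1720.4, 1945 and 1970.3 with Dnmt3a(+/+) BM and at 1628, 1427, 1481 and 1508 with Dnmt3a(+/-) BM. Atp5a1, the α subunit that alternates with β in the catalytic ring, had 1293, 1479.5 and 1417 against 1202, 974, 1140.4 and 1165 CPM. Atp5c1 (ENSMUSG00000025781, chr2:10056016-10080510), the rotating γ shaft, had 359, 385 and 299 against 249, 235, 268 and 280.3 CPM. In these 3 subunits every Dnmt3a(+/-) BM tumor lay below every Dnmt3a(+/+) BM tumor. Their log2 fold changes were -0.31 ± 0.17, -0.32 ± 0.17 and -0.43 ± 0.15, with adjusted p values of 0.531, 0.528 and 0.407 by edgeR. The other shaft subunits, δ (Atp5d) and ε (Atp5e), were at -0.48 ± 0.26 and -0.28 ± 0.34. The 3 genes Atp5g1, Atp5g2 and Atp5g3 encode the same mature c subunit of the proton-driven ring and were at -0.38 ± 0.23, -0.17 ± 0.17 and -0.48 ± 0.24. Without Dnmt3a(+/+) BM replicate 3, Atp5e moved to 0.01.

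**Figure D3:**
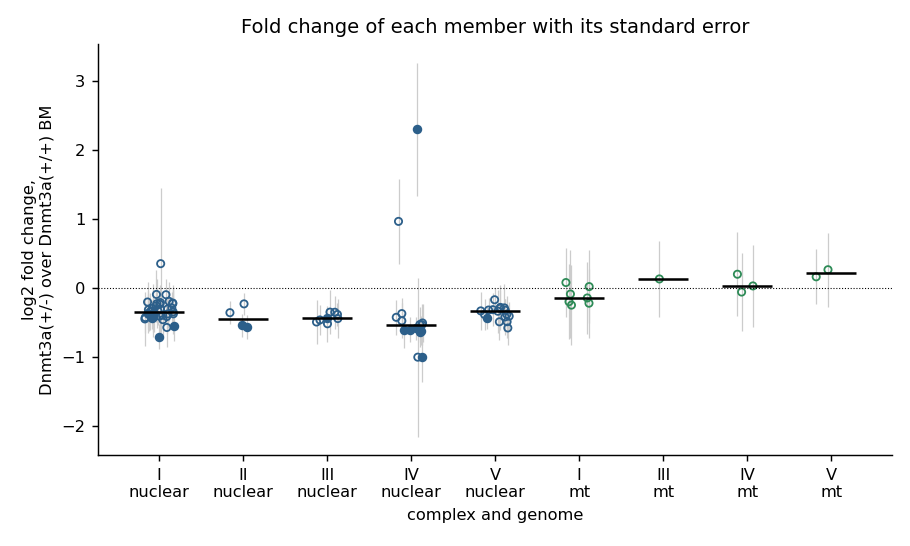
Log2 fold change of each of the 94 tested members (Dnmt3a(+/-) BM over Dnmt3a(+/+) BM, y axis) by complex and genome, with its standard error as a grey line. Filled points have an unadjusted p under 0.05, open points do not, and black bars are medians; nuclear medians lie between -0.53 and -0.33, and the high filled point in complex IV is Cox4i2.

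Several subunits exist in a widely expressed and a tissue-restricted form, and the 3 nuclear members with a log2 fold change above 0 (Cox4i2, Cox6b2 and Ndufa4l2) were restricted forms. Cox4i2, the form of subunit 4 known from lung and hypoxic cells, had 1, 7 and 2 counts with Dnmt3a(+/+) BM and 1, 28, 16 and 18 counts with Dnmt3a(+/-) BM. It was under 1 CPM in all tumors, beside the 1083 ± 42.4 CPM (SD, n = 3) of Cox4i1, and its log2 fold change 2.31 ± 0.96 (SE) rested on these few counts (adjusted p = 0.443, edgeR). Cox4i2 passed the count filter only through replicates 2, 3 and 4 of Dnmt3a(+/-) BM. With any 1 of these left out, or in BMT18 alone, it had too few counts to be tested. Replicate 1 of Dnmt3a(+/-) BM was as low as the tumors with Dnmt3a(+/+) BM. Pericytes are known to express this form. The summed level of their 6 markers was 54.1, 23.8 and 14.2 CPM with Dnmt3a(+/+) BM. With Dnmt3a(+/-) BM it was 63.05, 95.9, 28.8 and 28.1 CPM. All 6 of those markers had counts in every tumor, 6 had a fold change above 0, 0 were higher at an unadjusted p under 0.05, and their part in the Cox4i2 difference was not tested.

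Ndufa4l2, the paralogue of Ndufa4 that hypoxia is known to induce, was the most uneven member. It stood at 9.38, 7.74 and 9.02 CPM with Dnmt3a(+/+) BM and at 36.2, 0.835, 4.83 and 2.81 CPM with Dnmt3a(+/-) BM, so that replicate 1 of Dnmt3a(+/-) BM lay far above all other tumors while the other Dnmt3a(+/-) BM tumors lay below Dnmt3a(+/+) BM. Its log2 fold change of 0.36 ± 1.09 turned to -1.60 without that tumor. Ndufa4, which belongs to complex IV by structure though named for complex I, was at -0.09 ± 0.36, the smallest difference among the widely expressed nuclear members, and turned to 0.12 without Dnmt3a(+/+) BM replicate 3, to 0.02 without Dnmt3a(+/+) BM replicate 1 and to 0.12 without Dnmt3a(+/-) BM replicate 2. With library size alone as the scaling it was 0.12.

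Cox7a1, the form typical of heart, muscle and brown fat, had the lowest log2 fold change of all members, -0.999 ± 0.36 (adjusted p = 0.407, edgeR). It was measured at 16.7, 15.8 and 27.6 CPM with Dnmt3a(+/+) BM and at 6.56, 7.48, 10.2 and 15.8 CPM with Dnmt3a(+/-) BM, values that just overlapped. The widely expressed form Cox7a2 was at -0.50 ± 0.27; per kilobase of transcript, Cox7a1 had 50.9 CPM and Cox7a2 343 CPM with Dnmt3a(+/+) BM, and 25.5 and 242 CPM with Dnmt3a(+/-) BM. Striated muscle and brown fat markers summed to 2.08 to 43.1 CPM with Dnmt3a(+/+) BM and 4.38 to 56.6 CPM with Dnmt3a(+/-) BM, and the defining markers Ucp1 and Myh4 had no count in at least 1 tumor. Their part in the Cox7a1 difference was not tested. Cox6b2, a form known from testis, was at 0.940, 0.578 and 0.948 and 0.599, 3.30, 1.36 and 1.16 CPM, and Cox8b, a heart and muscle form, was under 1 CPM in all tumors.

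**Figure D4:**
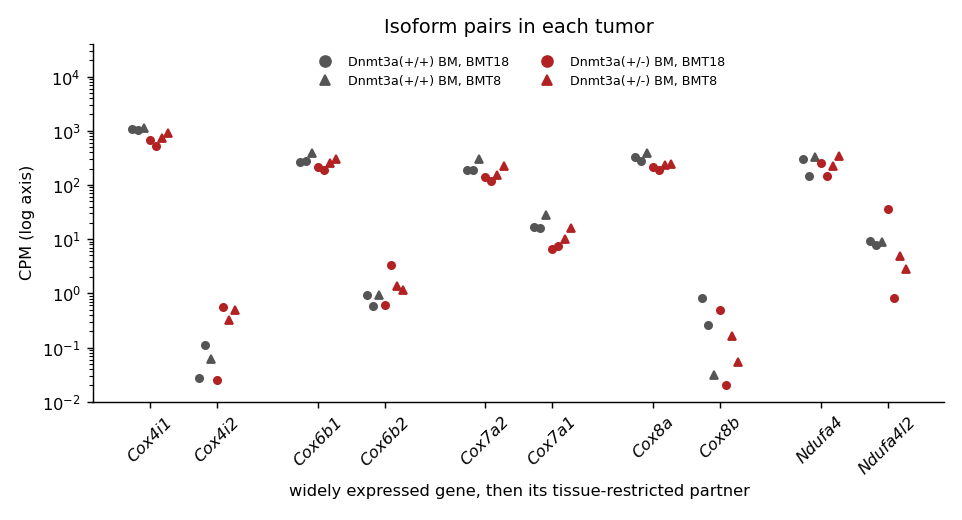
CPM (log axis) of widely expressed subunit genes and their tissue-restricted partners in each tumor, with grey for Dnmt3a(+/+) BM, red for Dnmt3a(+/-) BM, circles for BMT18 and triangles for BMT8. The restricted forms lie far below their partners, and 1 red circle of Ndufa4l2 (36.2 CPM) stands apart.

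The 13 genes of the mitochondrial genome are transcribed together from both strands of a circular DNA and cut apart afterwards. In these tumors they took 1.94, 2.05 and 4.19% of all counts with Dnmt3a(+/+) BM and 1.85, 2.0, 2.69 and 5.91% with Dnmt3a(+/-) BM. The nuclear members took 1.65, 1.8 and 1.9% of all counts with Dnmt3a(+/+) BM and 1.4, 1.42, 1.64 and 1.78% with Dnmt3a(+/-) BM. Mitochondrial shares thus differed more within each group than between the groups, and in BMT8 they were higher than in BMT18 within both groups.

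mt-Co1 (ENSMUSG00000064351, chrM:5328-6872), the catalytic subunit of complex IV and the most abundant member, was measured at 7685, 8405 and 18930 CPM with Dnmt3a(+/+) BM and at 6995, 6214, 8830.4 and 22957 CPM with Dnmt3a(+/-) BM. Replicate 3 of Dnmt3a(+/+) BM and replicate 4 of Dnmt3a(+/-) BM stood above the other 5 tumors, and the log2 fold change -0.05 ± 0.57 (SE) was small beside its error. It turned to 0.47 without Dnmt3a(+/+) BM replicate 3. Every other mitochondrial gene also had its 2 highest values in these 2 tumors. The 7 complex I genes had a median of -0.14, from -0.24 (mt-Nd1) to 0.08 (mt-Nd4l). mt-Nd6, the single protein gene on the light strand, was measured at 315, 334 and 814 CPM and 306, 225, 308 and 866 CPM, again highest in the same pair of tumors. mt-Cytb, the cytochrome b of complex III, was at 0.14 ± 0.55, mt-Co2 at 0.04 ± 0.60, mt-Co3 at 0.20 ± 0.61, mt-Atp8 at 0.17 ± 0.40 and mt-Atp6, the proton channel of complex V, at 0.27 ± 0.54. No adjusted p of a mitochondrial gene was below 0.896 (edgeR).

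Nuclear mean log2 CPM minus mitochondrial mean log2 CPM, which compares the genomes within a tumor, was -2.60, -2.46 and -3.32 with Dnmt3a(+/+) BM and -2.70, -2.81, -2.90 and -3.90 with Dnmt3a(+/-) BM. Within BMT18 both Dnmt3a(+/-) BM tumors lay below both Dnmt3a(+/+) BM tumors. In BMT8 Dnmt3a(+/+) BM replicate 3 lay between the Dnmt3a(+/-) BM tumors, so the groups overlapped. A difference between the genomes in the effect of the graft was therefore not separated from the spread between tumors. When the 2 tumors with most mitochondrial counts, Dnmt3a(+/+) BM replicate 3 and Dnmt3a(+/-) BM replicate 4, were left out (chosen after seeing the data), the median log2 fold change was -0.36 for nuclear and -0.14 for mitochondrial members, and 22 members were lower at an unadjusted p under 0.05, beside 6.02% of all genes. Without Dnmt3a(+/-) BM replicate 4 alone the mitochondrial median was -0.67, and without Dnmt3a(+/+) BM replicate 3 alone it was 0.48.

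**Figure D5:**
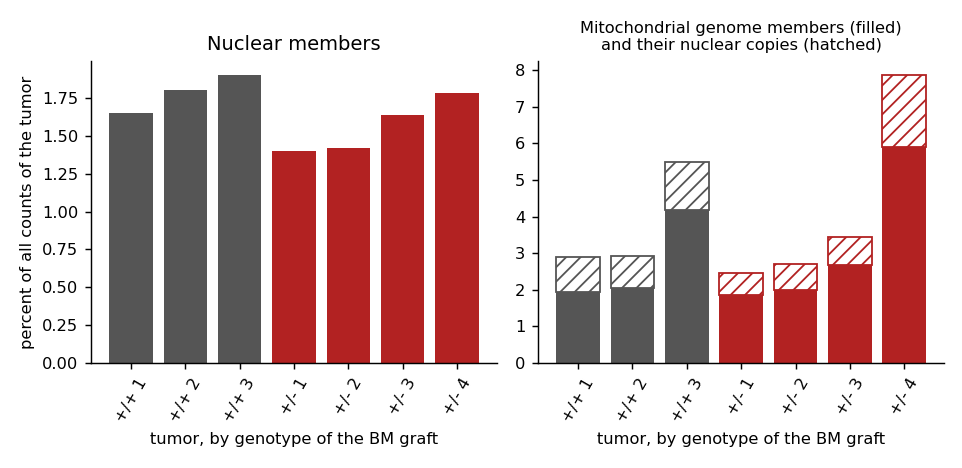
Percent of all counts of each tumor taken by the nuclear members (left) and by the mitochondrial genome members (right, filled) with their nuclear copies stacked on top (hatched), in grey for Dnmt3a(+/+) BM and red for Dnmt3a(+/-) BM. Without the copies (filled), the mitochondrial share was 4.19% in Dnmt3a(+/+) BM replicate 3 and 5.91% in Dnmt3a(+/-) BM replicate 4, and between 1.85% and 2.69% in the others.

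Levels of several mitochondrial genes were divided in the count table between the gene and a near-identical stretch of mitochondrial DNA inserted in chromosome 1. The sequences of both are shown for 60 bases at the start of 2 genes, since a read from these bases cannot, or can barely, be assigned. Capitals mark a base that differs (GRCm38, mitochondrial gene on the plus strand, copy on the minus strand).
mt-Atp6, chrM:7927-7986: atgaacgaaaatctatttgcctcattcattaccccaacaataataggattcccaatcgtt
Gm10925, chr1:24614592-24614651: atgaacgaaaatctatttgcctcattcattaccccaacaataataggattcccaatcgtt
mt-Nd3, chrM:9459-9518: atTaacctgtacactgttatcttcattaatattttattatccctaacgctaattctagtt
Gm28438, chr1:24613060-24613119: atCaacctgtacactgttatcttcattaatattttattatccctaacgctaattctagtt

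Over the 678 bases they share, mt-Atp6 and Gm10925 had 0 differences, and mt-Nd3 and Gm28438 had 1 over 345 bases. Gm10925 held 2.45 times the counts of mt-Atp6 over the 7 tumors. The ratio was 3.61 for Gm28437 and mt-Co3, 1.99 for Gm28438 and mt-Nd3, and 2.14 for Gm10222 and mt-Nd4l. The levels of these 4 genes as tabulated are therefore uncertain. When the counts of the copies were added to the gene (chosen after seeing the data), mt-Atp6 had 4947, 4400 and 7797 CPM with Dnmt3a(+/+) BM and 3315, 3233, 4228 and 11030 CPM with Dnmt3a(+/-) BM, and its log2 fold change turned from 0.27 to -0.07. mt-Co3 turned from 0.20 to -0.19. With copies added, the mitochondrial median was -0.07 and the mitochondrial genes with their copies took 2.89, 2.92 and 5.49% of all counts with Dnmt3a(+/+) BM and 2.45, 2.7, 3.43 and 7.86% with Dnmt3a(+/-) BM, with the same pair of tumors highest. Among nuclear members, Ndufb4 shared reads with Ndufb4c, which held 1.41 times its counts, and its log2 fold change was -0.34 alone and -0.35 with the copy. Ndufs3 (0.115 times, Gm12251) moved from -0.38 to -0.40. The nuclear median stayed at -0.38.

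Many nuclear respiratory chain genes are known targets of the factors NRF1, ETS-family proteins such as Gabpa, and YY1. Promoter windows from 250 bases before to 50 bases after the start (RefSeq, GRCm38.p6) matched 66 of the 84 nuclear members and were searched on both strands. The NRF1 letters GCGCATGCG stood in 8 of them (12.1%), beside 2.61% of the windows of 17492 protein-coding genes. The ETS letters CCGGAAG stood in 16 (24.2%, beside 12.9%) and the YY1 letters AAGATGGCG in 7 (10.6%, beside 2.14%). The ETS word ends, and the YY1 word begins, with AAG, but no member had matches of different words that shared bases. To show where these words lie, stretches before the start and outside annotated exons are printed for the 2 members of lowest p with such an NRF1 match and the 2 with such an ETS match, where Atp5l is in both pairs, with matches in capitals. No YY1 match of a member lay before the start and outside exons.
Cox6a1, chr5:115348982-115349129, minus strand: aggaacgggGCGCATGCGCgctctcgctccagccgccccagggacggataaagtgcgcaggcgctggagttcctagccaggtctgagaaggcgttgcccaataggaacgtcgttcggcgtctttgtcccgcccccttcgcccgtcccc
Atp5l, chr9:44920813-44920992, minus strand: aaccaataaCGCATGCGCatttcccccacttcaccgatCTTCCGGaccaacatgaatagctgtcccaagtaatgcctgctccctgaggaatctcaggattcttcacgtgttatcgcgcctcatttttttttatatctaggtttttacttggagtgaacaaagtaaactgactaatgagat
Sdhd, chr9:50603850-50603909, minus strand: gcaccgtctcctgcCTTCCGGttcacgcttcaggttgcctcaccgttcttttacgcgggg

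Cox6a1, which stood at -0.63 ± 0.21, carried the NRF1 letters on both strands in overlapping positions, and its window held the ETS letters outside the printed stretch. Sdhd, at -0.57 ± 0.17, carried the ETS letters, and Atp5l, a membrane subunit of the ATP synthase at -0.57 ± 0.25 carried both words in the printed stretch. The 26 tested members with at least 1 of the 3 motifs had a median log2 fold change of -0.36, and the 39 without one had -0.39. Their ranges, -0.63 to -0.17 and -0.999 to 0.97, overlapped. By transcript length, the 44 widely expressed nuclear members under 1000 bases had a median of -0.38 and the 32 longer ones -0.37. Within the groups, shorter members stood further above the other tumors than longer ones did in Dnmt3a(+/+) BM replicate 3 (median log2 difference 0.52 against 0.35) and in Dnmt3a(+/-) BM replicate 4 (0.69 against 0.47).

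Other genes of mitochondrial respiration had medians nearer to 0. Assembly factors and electron carriers had 42 of 51 tested genes below 0 and a median log2 fold change of -0.18. At an unadjusted p under 0.05, 4 were lower (7.84%, beside 5.2% of all genes) and 0 were higher. Cyc1, the cytochrome c1 of complex III whose symbol lies outside the member patterns, had 335 ± 46.2 CPM against 236 ± 28.0 CPM (SD, n = 3 and 4, Dnmt3a(+/+) BM first) and a log2 fold change of -0.50 ± 0.17. The complex IV assembly factors Surf1 and Sco1 were at -0.37 ± 0.13 and -0.40 ± 0.15. TCA cycle genes had 17 of 19 tested genes below 0 and a median of -0.20, with 3 lower at an unadjusted p under 0.05 (15.8%, beside 5.2%). The 3 were Cs, the citrate synthase, at -0.41 ± 0.14, Suclg1, a succinate-CoA ligase subunit, at -0.54 ± 0.20, and Idh3b, an isocitrate dehydrogenase subunit, at -0.34 ± 0.13. Genes for mitochondrial DNA replication and transcription had a median of 0.00 with 9 of 21 tested genes below 0, and Twnk, the mitochondrial helicase, stood at 0.42 ± 0.18. No adjusted p of a gene in these lists was below 0.393 (edgeR).

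Among 13 regulators of mitochondrial biogenesis the median was -0.14 and 9 were below 0. At an unadjusted p under 0.05, 1 was lower (7.69%, beside 5.2% of all genes) and 0 were higher. The lower gene was Esrra, the estrogen-related receptor α that is known to drive transcription of nuclear respiratory genes. It was measured at 231, 192 and 195 CPM with Dnmt3a(+/+) BM and at 126, 106, 144 and 136 CPM with Dnmt3a(+/-) BM. The groups did not overlap, and its log2 fold change was -0.69 ± 0.16 (adjusted p = 0.361 by edgeR and 0.0306 by DESeq2, where its fold change stayed under the size that a call needed), beside -0.70 for Ndufb8. Hcfc1, a cofactor of promoter-bound factors, was at 0.31 ± 0.14 and Ppard, a lipid-sensing nuclear receptor, at -0.47 ± 0.23.

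Lower values were also found outside respiration. Genes of the cytosolic ribosome, which has no part in it, had 80 of 80 tested genes below 0, beside 49.8% of all genes, and a median of -0.28. At an unadjusted p under 0.05, 4 were lower (5.0%, beside 5.2% of all genes) and 0 were higher. Rplp0, of the ribosomal stalk, was at -0.59 ± 0.23. Mitochondrial ribosome genes had 70 of 77 tested genes below 0 and a median of -0.16, with Mrpl9 at -0.46 ± 0.16.

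Levels of cell type markers were compared between the groups in the same way, and edgeR called none. The 12 colon epithelium markers summed to 19580 to 37700 CPM with Dnmt3a(+/+) BM and 10850 to 23980 CPM with Dnmt3a(+/-) BM. Of these, 11 of 12 were below 0, with a median log2 fold change of -0.57. At an unadjusted p under 0.05, 1 was lower (Lgals4, -0.96 ± 0.38) and 1 higher (Cdx2, 0.79 ± 0.29), beside 5.2% and 5.83% of all genes. The tumor with the highest epithelial sum, Dnmt3a(+/+) BM replicate 3, was also the highest in 65 of 76 widely expressed nuclear members. The one with the lowest, Dnmt3a(+/-) BM replicate 2, was the lowest in 64 of them. Both orders share the TMM factors, lowest in the first of these tumors (0.845, which raises its CPM) and highest in the second (1.206). As plain shares of counts, the nuclear members were lowest in Dnmt3a(+/-) BM replicate 1 (1.4%), beside 1.42% in replicate 2. Mean log2 CPM, which weights the 12 markers equally, was 9.24, 9.56 and 9.36 with Dnmt3a(+/+) BM and 8.81, 8.69, 9.24 and 9.16 with Dnmt3a(+/-) BM, so that by this measure Dnmt3a(+/+) BM replicate 2 was highest and Dnmt3a(+/-) BM replicate 2 again lowest. Endothelial markers summed to 9.03 to 17.6 CPM with Dnmt3a(+/+) BM and 18.12 to 107 CPM with Dnmt3a(+/-) BM. Of these, 5 of 5 were above 0 and 4 were higher at an unadjusted p under 0.05, beside 5.83% of all genes. By edgeR the lowest adjusted p was 0.377, and by DESeq2 3 of 5 had an adjusted p under 0.05, the lowest 0.0324 (Cdh5). Fibroblast markers summed to 177 to 348 CPM with Dnmt3a(+/+) BM and 256 to 1067 CPM with Dnmt3a(+/-) BM (8 of 8 above 0, 1 at an unadjusted p under 0.05), leukocyte markers to 46.7 to 96.1 CPM with Dnmt3a(+/+) BM and 45.6 to 468 CPM with Dnmt3a(+/-) BM (6 of 7 tested above 0, 0 at that p) and smooth muscle markers to 22.6 to 909 CPM with Dnmt3a(+/+) BM and 243 to 1167 CPM with Dnmt3a(+/-) BM (3 of 6 above 0, 0 at that p). The highest endothelial, fibroblast and leukocyte sums were those of Dnmt3a(+/-) BM replicate 2, and the other Dnmt3a(+/-) BM tumors reached at most 44.6, 393 and 99.1 CPM. The difference in mean log2 CPM was 2.21 in BMT18 and 0.91 in BMT8 for endothelial markers. It was 1.30 and -0.04 for fibroblast, and 1.26 and -0.55 for leukocyte markers. Every marker of epithelium, endothelium, fibroblasts and smooth muscle had counts in all tumors. Their part in the lower nuclear members was not tested.

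The size of the nuclear difference depended on the scaling, and its direction did not. With library size alone, the median over all genes was 0.213 and that of the nuclear members -0.17, -0.38 relative to all genes, against -0.38 with TMM; that of the mitochondrial members was 0.23. Of all genes at an unadjusted p under 0.05, 47.1% were lower with TMM, 30.8% with upper quartile factors and 14.6% with library size alone. The nuclear median was -0.24 without Dnmt3a(+/+) BM replicate 3, -0.24 without Dnmt3a(+/-) BM replicate 2 and -0.55 without Dnmt3a(+/-) BM replicate 4.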

How the data were processed

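RNA of 7 whole colon tumors (3 with Dnmt3a(+/+) BM, 4 with Dnmt3a(+/-) BM; poly(A) selected, directional libraries) was analysed. According to the study's methods and the labels, the authors trimmed reads with Trimmomatic, aligned them to mm10 with STAR and estimated counts per gene with RSEM; the annotation release is not given in the sources used here. The values deposited by the authors are those estimated counts, in whole numbers and without normalization. Ensembl identifiers were paired with symbols, positions and biotypes by GENCODE M21 (GRCm38): 42462 of 43346 matched, and identifiers without a symbol held 0.104% of counts. The patterns matched 107 genes, of which 10 were pseudogenes and were left out.

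Counts were fitted over all genes with edgeR 4.0.16 in R 4.3.3 (TMM; filterByExpr; quasi-likelihood F test; no covariate), with Benjamini-Hochberg adjustment, and a call needed a log2 fold change beyond 1 in size and an adjusted p under 0.05. CPM carry no prior count, and mean log2 CPM a prior count of 2. DESeq2 1.42.0, other scalings, the experiment or the replicate number as a term, and leaving out single tumors were alternatives. Near-identical copies were found with BLAST 2.17.0 at 97% identity or more over at least 30% of the transcript. In data simulated from these libraries, 200 genes among 15810 were changed. Each change was larger than the log2 fold change of 1 that a call needed, and so far larger than the median nuclear difference. With gene-wise dispersions edgeR recovered 125 with 6 false calls and DESeq2 158 with 96. With a dispersion of 0.05 in place of these, edgeR recovered 195 with 2 false calls and DESeq2 195 with 1. Recovery at the size of the nuclear differences was not tested. No 2 libraries were duplicates. Each tumor is from a different mouse per the study's methods; p values measure the spread between these tumors. The members and lists were chosen with earlier results of these data known. Named were the mitochondrial genes, the complex II genes, core and catalytic subunits, tissue-restricted forms with their partners, the member of lowest p per complex and direction, and the 3 genes of lowest p per list; some genes of this rule are not reported here, and genes outside it (Ndufb5, Ndufb9, Cox7a2l, Ndufb4, the promoter member Atp5l) were named after their values were seen.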

Additional observations from a re-analysis of the deposited data

Results flagged for a closer look

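A tumor stood far from the other 3 of its group, by Dixon's test (the gap to its neighbour over the whole range of the 4 tumors with Dnmt3a(+/-) BM, at the 95% critical value), in 9 of 58 values examined, where chance alone gives about 2.9; genes of a genome are not independent, and groups of 3 were not tested. Ndufa4l2 was at 36.2 CPM in replicate 1 of Dnmt3a(+/-) BM, and the next of the 4 tumors was at 4.83 CPM. The other values belonged to replicate 4 of Dnmt3a(+/-) BM and to the mitochondrial genome: mt-Co1 at 22957 CPM, mt-Co3 at 4133 CPM, mt-Atp6 at 3687 CPM, mt-Nd2 at 1993 CPM, mt-Nd3 at 404 CPM, mt-Nd4 at 3586 CPM, mt-Nd5 at 2279.8 CPM and mt-Nd6 at 866 CPM. In Dnmt3a(+/+) BM, replicate 3 was likewise highest, as for mt-Co1 at 18930 CPM, and both tumors belong to experiment BMT8. mt-Co3, mt-Atp6 and mt-Nd3 share reads with copies on chromosome 1, and with the copies added replicate 4 was still the highest tumor for each.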

How the results depend on the processing

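No member was called under any alternative run: DESeq2, library size only, median-of-ratios or upper quartile factors, mitochondrial genes left out of the library sizes, no filter, no fold threshold, the experiment or the replicate number as a term, BMT18 alone, single tumors left out, copies added, or Dnmt3a(+/+) BM replicate 3 and Dnmt3a(+/-) BM replicate 4 left out (the last 2 kinds were chosen after seeing the data). The nuclear median was below 0 in all of them. Members lower at an unadjusted p under 0.05, 13 as reported, were 7 with library size only (beside 1.82% of all genes), 58 with the experiment as a covariate, 59 with copies added as well (beside 7.31%), 38 in BMT18 alone (beside 5.88%), 22 without the 2 tumors named, and 8 to 45 with a tumor left out. Members higher, 1 as reported, were 0 with the experiment as a covariate (copies added or not), with the replicate block, in BMT18 alone and without those 2 tumors, and 0 to 1 with a tumor left out. The 1 member, Cox4i2, was not tested in BMT18 alone or with replicate 2, 3 or 4 of Dnmt3a(+/-) BM left out. The complex II median was -0.24 with library size only.

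With a tumor left out, the median log2 fold change ranged from -0.56 to -0.19 for all members, -0.55 to -0.24 for nuclear, -0.67 to 0.48 for mitochondrial, and -0.51 to -0.14, -0.54 to -0.33, -0.63 to -0.28, -0.69 to -0.39 and -0.56 to -0.19 for nuclear complexes I to V; calls were 0 to 0. The mean in place of the median was -0.00 for mitochondrial members.

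With the replicate block 64 members were lower at an unadjusted p under 0.05, beside 6.77% of all genes, and 0 were called, with medians of -0.55 (nuclear) and -0.56 (mitochondrial). The numbers do not pair the tumors: deviations from the group means of same-numbered tumors correlated at 0.568, 0.071 and -0.038, so a change of calls under the block says nothing of the size of the effect.

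Of 40 single genes examined, 32 kept the sign of their log2 fold change under every alternative that could be fitted. The cause was not tested for the others. With library size only, Atp5g2 was 0.04654, Ndufa4 0.12 and mt-Co1 0.14, and mt-Co1 was 0.02895 with upper quartile factors. With the replicate block Ndufa4l2 was -0.73 and mt-Atp6 -0.31. mt-Atp6 was -0.13 in BMT18 alone, -0.068 with copies added and -0.32 with copies and the experiment. With a tumor left out, Atp5e ranged from -0.59 to 0.0085, Cox8b from -1.53 to 0.22, Ndufa4 from -0.37 to 0.12, Ndufa4l2 from -1.60 to 0.75, mt-Nd1 from -0.86 to 0.37, mt-Co1 from -0.67 to 0.47 and mt-Atp6 from -0.38 to 0.64. Cox4i2 and Cox8b, at few counts per tumor, are limited by depth.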
